A study of Drosophila melanogaster with 6 samples.

Results

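Odorant receptors of the at1 trichoid sensilla and of the intermediate sensilla of the fly antenna were examined in control and E93RNAi females of *Drosophila melanogaster*. The set holds 7 of the 60 odorant receptor (Or) genes listed in the deposited counts, chosen by the sensillum that houses them and matched by FlyBase symbol to the 17698 gene identifiers. They are *Or67d* of at1, *Or83c* and *Or23a* of at2, and *Or2a*, *Or43a*, *Or19a* and *Or19b* of at3. The intermediate types at2 and at3 are also called ai2 and ai3.

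Antennal RNA was sequenced from 3 biological replicates of each group, with females aged 2 to 5 days kept at 25 °C and 350 females of each genotype reared together for every pair of replicates. Each sample is therefore a pool of many animals. Both genotypes carried 1 copy of *peb*-Gal4 and UAS-*Dcr2*, so *Dcr-2*, an enzyme of RNA interference, was driven in the control as well. *peb*-Gal4 is active in sensory neurons, whereas the RNA came from whole antennae with all their cell types. They differed in a further insertion, and here the labels disagree with each other. The protocol text writes UAS-E93KK108140/+ for the control and VIE-260B/+ for E93RNAi, while titles, the knockdown entry and the sample descriptions (VDRC60100 for the control) imply the reverse assignment. Groups follow the titles.

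Most olfactory neurons express 1 tuning receptor together with the co-receptor Orco, and neurons of fixed identity share a hair-like sensillum. The single neuron of at1 carries Or67d, the receptor for the male pheromone cis-vaccenyl acetate (cVA), which neurons of this type relay to circuits of courtship and aggression. Intermediate sensilla lie in shape between trichoid and basiconic ones and hold neurons for food and oviposition odours, among them Or83c, a farnesol receptor, and Or19a, a receptor for citrus terpenes. E93 (*Eip93F*) is an ecdysone-induced transcription factor of metamorphosis that also takes part in the choice of odorant receptors. The comparison asks how E93RNAi alters receptor transcripts in the adult antenna.

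Libraries held 16639918 to 18400979 reads assigned to genes. At this depth 3 counts correspond to 0.163 to 0.182 CPM (counts scaled to library size with the TMM factors of edgeR). *Eip93F* was counted 6070, 6993 and 6875 times in the control samples (replicates 1 to 3) against 5954, 6021 and 5876 times in the E93RNAi samples, and the log2 fold change was -0.19 (SE 0.048; edgeR adjusted p = 0.0119). This call was lost without control replicate 2 (edgeR adjusted p = 0.0564) and without E93RNAi replicate 3 (edgeR adjusted p = 0.0552). Reads of an E93 hairpin transcript, if any, cannot be told apart from those of the gene. *w*, a form of which marks many fly transgenes, averaged 1096 ± 19.9 CPM in the libraries titled control and 5990 ± 233.5 CPM in those titled E93RNAi (SD, n = 3), and the log2 fold change was 2.45 (edgeR adjusted p = 6.25e-12). Which insertion this difference goes with was not tested. All 6 listed antennal genes (*Orco*, *Ir25a*, *Ir8a*, *Ir76b*, *lush*, *Obp83a*) were well counted, and 3 of them were higher, 2 lower and 1 not past the threshold in E93RNAi. Of 5 neuronal markers (*elav*, *nSyb*, *Syt1*, *brp*, *Syn*) 0 passed the threshold in either direction in edgeR or in DESeq2. At an unadjusted p under 0.05 the count was 0 in edgeR and 1 in DESeq2. Of 4 tested glial markers 3 were higher and 1 lower. Transcripts of other head tissues were scarce. The 5 eye markers summed to 1.26 to 1.43 CPM in control and 1.95 to 2.23 CPM in E93RNAi, the 5 muscle markers to 11.2 to 11.9 and 9.99 to 26.7 CPM, and the 5 fat body markers to 6.02 to 16.4 and 6.56 to 22.4 CPM. The 7 receptors of the maxillary palp, the second olfactory organ, summed to 30.8 to 37.5 CPM in control and 26.9 to 29.3 CPM in E93RNAi, most of it *Or46a*. Without *Or46a* the palp sum was 4.38 to 8.999 CPM in control and 6.50 to 11.6 CPM in E93RNAi. Of the tested genes on these lists, 1 of 2 eye, 2 of 3 muscle, 1 of 3 fat body and 1 of 5 palp genes were higher in E93RNAi, and 1 palp gene (*Or46a*) was lower. The part of these tissues and of glia in the results below was not tested.

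All 7 receptors passed the filter on low counts. In E93RNAi 5 of them rose (*Or67d*, *Or43a*, *Or23a*, *Or19a*, *Or19b*), *Or83c* fell to 3.26% of its control level and *Or2a* did not pass the threshold (adjusted p under 0.05 in edgeR's quasi-likelihood test over 9237 genes). Over all tested genes 24.3% passed this threshold, 13.8% as higher and 10.5% as lower. Calls were more common in the receptor family: of the 42 tested Or genes, these 7 included, 14 were higher and 16 lower. The median log2 fold change of the 7 was 0.39, beside 0.00028 over all genes tested and -0.0013 over the 42 tested Or genes. Control and E93RNAi samples did not overlap in CPM for 6 of the 7, and 37.5% of all tested genes showed such a separation. In whole antennae, fewer neurons of a type and less receptor RNA per neuron cannot be told apart, nor can more neurons and more RNA per neuron.

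**Figure D1:**
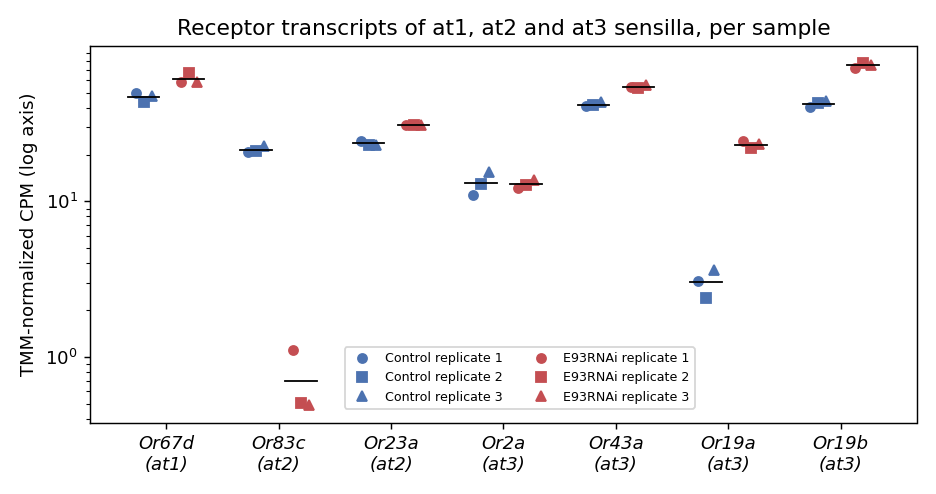
TMM-normalized CPM (log axis) of each receptor gene in each of the 6 samples, with sensillum type in brackets; black lines are group means. *Or83c* lies at 20.7 to 22.8 CPM in control and 0.488 to 1.11 CPM in E93RNAi, *Or19a* moves from 2.40 to 3.62 CPM up to 21.9 to 24.3 CPM, and the groups overlap for *Or2a*.

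*Or67d* (FBgn0036080) lies on arm 3L of build BDGP6 at bases 10273204 to 10274624 on the plus strand, and no other annotated exon overlaps its 4 exons. It was counted 818, 762 and 871 times in the control samples (replicates 1 to 3) against 1006, 1200 and 1079 times in the E93RNAi samples. Every E93RNAi sample was above every control sample. Its level rose from 47.0 ± 3.17 CPM to 61.5 ± 4.81 CPM (SD, n = 3), and the log2 fold change was 0.39 (SE 0.066; edgeR adjusted p = 0.000874). The cVA receptor was thus 1.31-fold higher in E93RNAi.

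A list of 12 genes compiled around cVA signalling was read next. A place on this list does not show a role in Or67d neurons. Of the 10 listed genes that were tested, 2 rose, 5 fell and 3 did not pass the threshold, with a median log2 fold change of -0.056. Over all genes tested 24.3% passed, 13.8% as higher and 10.5% as lower. *lush*, the odorant-binding protein that Or67d neurons need for cVA, rose by 0.23 on the log2 scale (SE 0.045; edgeR adjusted p = 0.00238). *Obp83a*, another binding protein of trichoid support cells, rose by 0.21 (edgeR adjusted p = 0.00408). *Snmp1*, the CD36-family protein required for cVA responses, fell by 0.37 (SE 0.053; edgeR adjusted p = 0.000235). Its counts were 33513, 32451 and 33451 in control and 26480, 26009 and 26526 in E93RNAi, so the groups were well apart. *fru*, a transcription factor of courtship circuits that is expressed in Or67d and Or47b neurons, fell by 0.81 on the log2 scale (SE 0.059; edgeR adjusted p = 7.55e-07). It had control counts of 2036, 2534 and 2442 and E93RNAi counts of 1255, 1439 and 1395. In whole antennae, changes of genes that other neurons also express, such as *fru* and *Orco*, cannot be placed in Or67d neurons. The co-receptor gene *Orco* fell by 0.20 (edgeR adjusted p = 0.00357), the lipid flippase gene *ATP8B* fell by 0.21 (edgeR adjusted p = 0.00487) and the esterase gene *Est-6* fell by 0.48 (edgeR adjusted p = 2.79e-05), all on the log2 scale. The sodium channel gene *ppk25* (log2 fold change 0.088, adjusted p = 0.472), the flippase subunit gene *Cdc50* (0.086, adjusted p = 0.138) and *Obp83b* (0.14, adjusted p = 0.0741) did not pass the threshold in edgeR. Scaling by library totals moved the latter pair, *Cdc50* and *Obp83b*, past the threshold (adjusted p = 0.0484 and 0.028, edgeR). *Obp83b* also passed with the replicate block (edgeR adjusted p = 0.0163), in DESeq2 (adjusted p = 0.0438) and without control replicate 1 (edgeR adjusted p = 0.0308). The arrestin genes *Arr1* and *Arr2* had at most 5 counts in any sample and were not tested.

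The pair of receptors of at2 sensilla went in opposite directions. *Or83c* (FBgn0037399; 3R, bases 6076804 to 6078283, minus strand) was counted 340, 369 and 416 times in the control samples (replicates 1 to 3). The E93RNAi samples held 19, 9 and 9 counts of it. All 3 E93RNAi values were far below the control values, but each was above the floor of 3 counts. The level fell from 21.5 ± 1.12 CPM to 0.701 ± 0.356 CPM (SD, n = 3), and the log2 fold change was -4.94 (SE 0.18; edgeR adjusted p = 1.43e-09), or 30.8-fold lower. Among the 42 tested Or genes this was the fall in place 6, and 12 of all tested genes fell by as much or more. Replicate 1 held the highest of the E93RNAi counts of *Or83c*.

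*Or23a* (FBgn0026395; 2L, bases 2654049 to 2655462, plus strand) shares the sensillum with *Or83c*. It had control counts of 404, 403 and 423 and E93RNAi counts of 533, 558 and 572. The E93RNAi values were all higher than the control values. The level rose from 23.6 ± 0.852 CPM to 31.1 ± 0.106 CPM (SD, n = 3), and the log2 fold change was 0.40 (SE 0.059; edgeR adjusted p = 0.000297). Its exons share bases with those of *Prosbeta4R2* on the same strand, and reads there may have been left out as ambiguous. The gain of *Or23a*, 7.53 CPM, was smaller than the loss of *Or83c*, which fell by 20.8 CPM.

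A ratio of both counts within a library does not depend on how libraries are scaled. The log2 ratio of *Or23a* to *Or83c* counts was 0.25, 0.13 and 0.024 in control replicates 1 to 3. It was 4.81, 5.95 and 5.99 in E93RNAi replicates 1 to 3. The control libraries thus held nearly equal counts of both genes, and the E93RNAi libraries held almost none of *Or83c*. The difference of 5.45 on the log2 scale had p = 0.1 (exact permutation test, two-sided) (adjusted p = 0.1 over 4 ratios), the smallest value that 3 samples against 3 allow.

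The nearest protein-coding genes on each side that do not overlap the receptor were looked up by position, a choice made after the receptor values had been seen. Beside *Or83c*, *CG15580* (19268 bases away) had 13, 23 and 11 counts in control and 0 counts in every E93RNAi sample, at least 5.35-fold lower against a floor of 3 counts per library. On the other side *Gasp*, a chitin-binding protein gene 10516 bases away, had control counts of 80, 82 and 86 and E93RNAi counts of 264, 258 and 236. It rose by 1.58 in log2 terms (edgeR adjusted p = 4.71e-07), so the genes flanking *Or83c* moved in opposite directions. The neighbours of *Or2a*, *fs(1)K10* 190 bases and *crn* 27 bases away, did not pass the threshold (log2 fold changes 0.034 and 0.11, adjusted p = 0.778 and 0.183, edgeR). *Prosbeta4R2*, which overlaps *Or23a*, was not among them. The flanking genes of *Or67d* and *Or23a* and those on the 3' side of each *Or19* copy had at most 7 counts in any sample. On the other side of *Or19b*, the forkhead gene *fd19B* had 2 counts in each control sample and 12, 17 and 10 counts in E93RNAi, too few to pass the filter (edgeR adjusted p = 0.00079 with no filter). *aspr*, beside *Or19a*, had a log2 fold change of 0.51 (edgeR adjusted p = 0.158). Beside *Or43a*, *pk* had a log2 fold change of -0.09 (edgeR adjusted p = 0.571) and *Adk3* one of -0.17 (edgeR adjusted p = 0.0353), a call lost in 5 of the 6 fits that left out 1 sample, with library totals (edgeR adjusted p = 0.0820) and in DESeq2 (adjusted p = 0.147).

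The at3 sensilla house neurons for 3 receptor types, and their transcripts moved unequally. *Or43a* (FBgn0026389, arm 2R), a receptor for benzaldehyde and related odours, had control counts of 671, 724 and 794 and E93RNAi counts of 925, 957 and 1028. The groups did not overlap. Its level rose from 41.9 ± 1.42 CPM to 54.4 ± 1.16 CPM (SD, n = 3), and the log2 fold change was 0.38 (SE 0.049; edgeR adjusted p = 0.000106).

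*Or2a* (FBgn0023523; X, bases 2246231 to 2247567, plus strand) had control counts of 182, 225 and 281 and E93RNAi counts of 209, 230 and 255. The samples of the groups were interleaved. The means were 13.1 ± 2.17 CPM and 13.0 ± 0.800 CPM (SD, n = 3), with a log2 fold change of -0.018 that turned to 0.0092 with library totals (adjusted p = 0.933 and 0.972, edgeR). The 95% confidence interval of the log2 fold change ran from -0.27 to 0.23. Its upper bound lies below the fold changes of the other at3 receptors. The log2 ratio of *Or2a* to *Or43a* counts was -1.88, -1.69 and -1.50 in control and -2.15, -2.06 and -2.01 in E93RNAi replicates 1 to 3. These did not overlap, and the difference of -0.38 had p = 0.1 (exact permutation test, two-sided).

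*Or19a* and *Or19b* are copies of one gene on the X chromosome, at bases 20141819 to 20143188 on the minus strand and 20094398 to 20095767 on the plus strand. They are 46052 bases apart, face opposite ways and have the same annotated layout of 3 exons with 1164 exon bases. Because the copies are near-identical, reads that match both can be lost or split between them, and their separate values are uncertain.

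*Or19a* (FBgn0041626) was counted 51, 42 and 66 times in the control samples (replicates 1 to 3) against 415, 392 and 430 times in the E93RNAi samples. *Or19b* (FBgn0062565) had control counts of 666, 751 and 803 and E93RNAi counts of 1236, 1388 and 1380. Both genes were higher in every E93RNAi sample than in every control sample. *Or19a* rose from 3.04 ± 0.610 to 23.2 ± 1.21 CPM (SD, n = 3), or 7.59-fold, and the log2 fold change was 2.92 (SE 0.12; edgeR adjusted p = 3.87e-09). *Or19b* rose from 42.5 ± 1.79 to 74.9 ± 2.58 CPM (SD, n = 3), or 1.76-fold, and the log2 fold change was 0.82 (SE 0.050; edgeR adjusted p = 1.60e-07). The larger fold belonged to *Or19a* and the larger gain to *Or19b*, at 20.1 CPM for *Or19a* and 32.4 CPM for *Or19b*.

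The share of *Or19a* in the counts of both copies was 7.11%, 5.30% and 7.59% in control replicates 1 to 3. It was 25.1%, 22.0% and 23.8% in E93RNAi replicates 1 to 3. Exact binomial 95% intervals, which cover counting error only, reached at most 9.56% in a control library and began at 20.1% or above in every E93RNAi library. The mean rose by 17.0 percentage points, from 6.67% ± 1.21 to 23.6% ± 1.56 (SD, n = 3), with p = 0.1 (exact permutation test, two-sided), again the smallest possible. The sum of both copies does not depend on how reads were split between them, but reads that match both may be missing from it. It was 43.6, 45.3 and 47.6 CPM in control. In E93RNAi it was 96.6, 99.4 and 98.1 CPM, so all E93RNAi samples lay above the controls.

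Against the other receptors of at3, the summed *Or19* counts also gained. Their log2 ratio to *Or43a* was 0.096, 0.13 and 0.13 in control and 0.84, 0.90 and 0.82 in E93RNAi replicates 1 to 3, a difference of 0.73. To *Or2a* it was 1.98, 1.82 and 1.63 in control and 2.98, 2.95 and 2.83 in E93RNAi, a difference of 1.11. Neither ratio overlapped between the groups, and both had p = 0.1 (exact permutation test, two-sided) (adjusted p = 0.1 over 4 ratios). In E93RNAi libraries *Or19* counts were thus higher relative to both *Or43a* and *Or2a*, and *Or2a* counts were lower relative to *Or43a*.

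**Figure D2:**
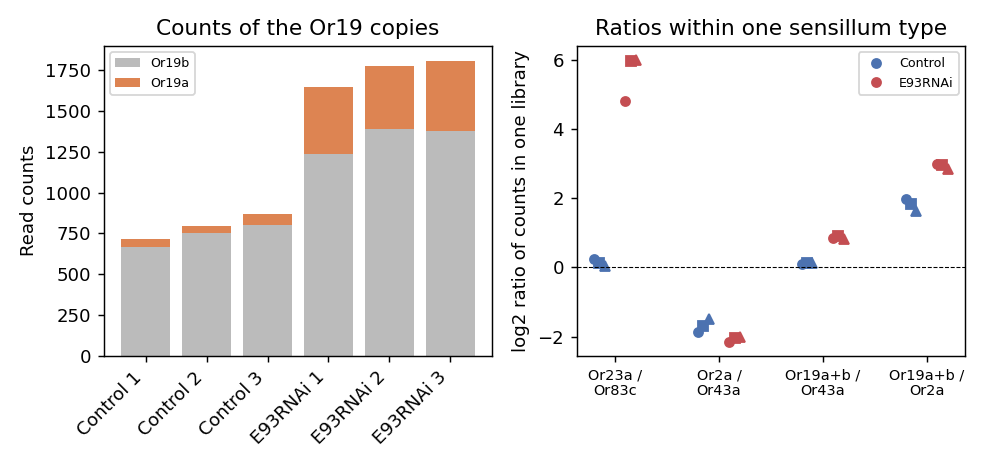
Left, read counts of *Or19b* (grey) and *Or19a* (orange) stacked per library; right, log2 ratios of counts within each library for receptors of at2 (*Or23a* to *Or83c*) and at3, 1 point per library. The *Or19a* share grows from 5.30 to 7.59% in control to 22.0 to 25.1% in E93RNAi, and the *Or23a* to *Or83c* ratio moves from at most 0.25 to at least 4.81.

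Levels were compared between the genes per kilobase of exon (RPKM, the CPM value divided by exon length in kilobases). Reads that match both *Or19* copies may be missing from their values, so the places of *Or19a* and *Or19b* are uncertain in either group. In control the order was *Or67d* (40.0 ± 2.69 RPKM), *Or19b* (36.5 ± 1.53), *Or43a* (27.4 ± 0.928), *Or83c* (18.0 ± 0.939), *Or23a* (17.3 ± 0.625), *Or2a* (10.3 ± 1.72) and *Or19a* (2.61 ± 0.524; all RPKM, SD, n = 3). The ranges of *Or67d* and *Or19b* overlapped, as did those of *Or83c* and *Or23a*, and the other neighbours in this order were separate. Among all 60 Or genes the 7 took places from 16 (*Or67d*) to 37 (*Or19a*) by mean control RPKM.

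In E93RNAi the order became *Or19b* (64.3 ± 2.22 RPKM), *Or67d* (52.3 ± 4.09), *Or43a* (35.5 ± 0.760), *Or23a* (22.8 ± 0.0776), *Or19a* (19.9 ± 1.04), *Or2a* (10.2 ± 0.631) and *Or83c* (0.587 ± 0.298; all RPKM, SD, n = 3), with no overlap between neighbours. *Or19b* moved from place 19 to place 7 among the 60 Or genes and *Or83c* from place 27 to place 36. Per coding length, *Or43a* came before *Or19b* in control (37.1 and 36.6 RPKM) and *Or23a* before *Or83c* (20.7 and 18.1 RPKM). The order in E93RNAi was the same by either length.

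**Figure D3:**
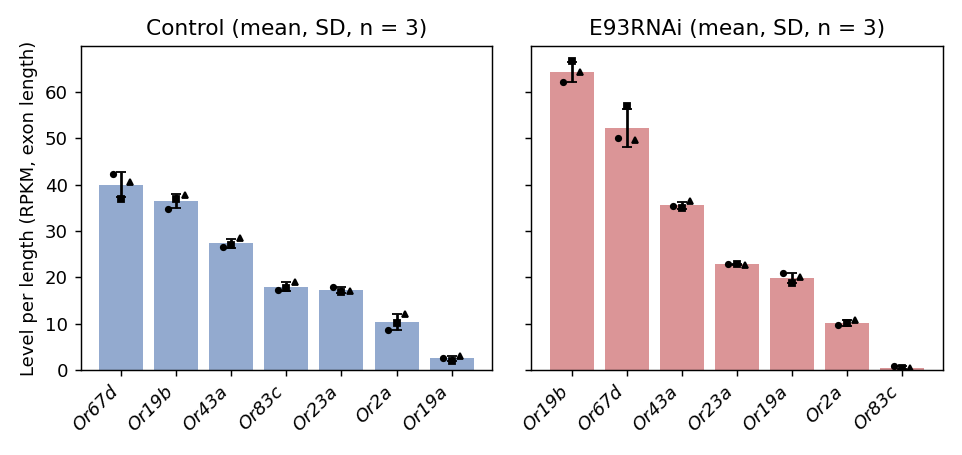
Level per exon length (RPKM) of the 7 receptor genes, ordered by mean within each group; bars are means, error bars SD and points the 3 replicates. *Or67d* leads in control at 40.0 RPKM and *Or19b* in E93RNAi at 64.3 RPKM, where *Or83c* is last at 0.587 RPKM. Values of the *Or19* copies may miss reads that match both.

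Taken as a group, the 7 receptors gained a share of receptor transcripts. They made up 8.52%, 8.70% and 9.003% of all Or counts in control replicates 1 to 3 and 13.4%, 13.7% and 13.1% in E93RNAi replicates 1 to 3. Their summed level was 187.1 to 200.1 CPM in control and 254.2 to 264.3 CPM in E93RNAi. The members were unequal in this: mean gains were 32.4 CPM for *Or19b*, 20.1 for *Or19a*, 14.5 for *Or67d*, 12.5 for *Or43a* and 7.53 for *Or23a*. *Or83c* fell by 20.8 CPM, and the difference for *Or2a* was -0.14 CPM. Over the same samples the sum over all Or genes was 2151 to 2235 CPM in control and 1896 to 1961 CPM in E93RNAi. The share therefore rose through both a higher sum of these genes and a lower sum of all of them.

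The receptors of the at4 trichoid and ai1 intermediate sensilla, the closest relatives by sensillum type, were set beside them. All 6 were lower in E93RNAi. *Or47b*, a receptor for fly-derived fatty acids in at4, fell by 6.84 in log2 terms (edgeR adjusted p = 1.46e-12), *Or65a* fell by 8.39 (edgeR adjusted p = 1.41e-11) and *Or65b* fell by 7.50 (edgeR adjusted p = 2.67e-11). In E93RNAi *Or65a* had 5, 1 and 1 counts, a mean of 0.134 CPM that lies under the floor of 0.169 CPM, and *Or65b* had 11, 3 and 3 counts. Without E93RNAi replicate 1 their log2 fold changes were -9.54 and -8.42, so the size of both falls is uncertain. *Or65c* was at or under 3 counts in every E93RNAi sample, at least 88.7-fold lower. *Or88a*, the third at4 receptor type, had control counts of 395, 512 and 534 and E93RNAi counts of 148, 173 and 195, and the log2 fold change was -1.51 (edgeR adjusted p = 3.35e-07). It overlaps *asRNA:CR44237* on the opposite strand, and with the strand setting of the counting unknown those reads may be mixed. *Or13a* of ai1 had control counts of 664, 683 and 726 and E93RNAi counts of 591, 601 and 604, and the log2 fold change was -0.24 (edgeR adjusted p = 0.00496). Among the trichoid and intermediate receptors *Or83c* was therefore the only one of at1, at2 and at3 that was called lower, as all 6 of at4 and ai1 were. The difference between the sets was not tested.

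**Figure D4:**
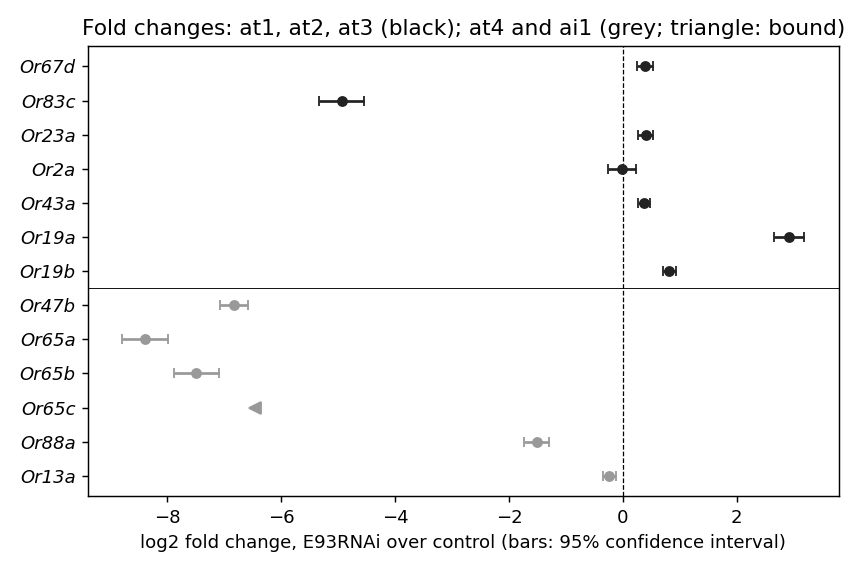
Log2 fold changes (E93RNAi over control) with 95% confidence intervals from edgeR for the 7 receptors of at1, at2 and at3 (black) and the 6 of at4 and ai1 (grey); the triangle marks the bound for *Or65c*. The interval of *Or2a* (-0.27 to 0.23; its estimate is above 0 with library totals) spans 0, 5 black points lie above 0, and *Or83c* lies at -4.94.

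The chemoreceptor gene with the most similar profile over the 6 samples was sought for each of the 7 among 74 other tested Or, Ir and Gr genes, as the smallest Euclidean distance between mean-centred log2 CPM values. This is a description, since all profiles come from the same libraries and are dominated by the difference between 2 groups. *Ir31a* was closest to *Or67d* (distance 0.16), *Or67c* to *Or43a* (0.13), *Or43a* to *Or23a* (0.14), *Or43b* to *Or19b* (0.17) and *Or33a* to *Or2a* (0.16). For the receptors with the largest changes the closest profiles were further off. The distance grows with any gap in fold change and with noise at low counts, so it is not read as a trait of these receptors. *Ir75c*, with a log2 fold change of 2.29, was nearest to *Or19a* at a distance of 0.89, and *Gr93a*, with a log2 fold change of -4.45, was nearest to *Or83c* at 1.76.

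Regulators of receptor choice were read from a list of 21 genes. Of 18 tested, 2 rose, 4 fell and 12 did not pass the threshold, with a median log2 fold change of -0.037, beside 24.3% called over all genes tested. *Fer1*, a bHLH factor of olfactory neurons, fell by 0.19 in log2 terms (edgeR adjusted p = 0.0062). The homeobox gene *en* fell by 0.28 (adjusted p = 0.0134, edgeR; 0.0731 without control replicate 3). The zinc-finger gene *sqz* rose by 0.41 (edgeR adjusted p = 0.0277), and this call was lost without control replicate 1 (0.0935), E93RNAi replicate 2 (0.101) or E93RNAi replicate 3 (0.0844). *dac* fell by 0.20 (adjusted p = 0.0474) and the nuclear receptor gene *svp* rose by 0.22 (adjusted p = 0.0482) in edgeR. The call of *svp* was lost in every fit that left out 1 sample, and that of *dac* in each of these except the fit without control replicate 1. Both calls were also lost in DESeq2 (adjusted p = 0.289 for *svp* and 0.110 for *dac*). The call of *svp* was lost as well with the replicate block (0.0549), DESeq2 size factors (0.0516), upper-quartile factors (0.0575) and no filter (0.0904), and that of *dac* with library totals (0.0919; all edgeR adjusted p). *Eip93F* is the fourth that fell. The POU factors *acj6* (log2 fold change 0.097) and *pdm3* (-0.061), known from receptor choice, did not pass the threshold.

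Receptors known mainly from the larva were also read, because E93 acts at metamorphosis. Of 12 such genes 1 was tested, and *Or1a* had control counts of 36, 36 and 38 and E93RNAi counts of 74, 66 and 65. It rose by 0.86 in log2 terms (edgeR adjusted p = 0.00348). The other 11 had at most 8 counts in any sample, and *Or24a* and *Or94b* had 0 counts in all 6.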

How the data were processed

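Each sample has 1 deposited file of unnormalized counts per FlyBase gene. Per the submitters' processing notes, cutadapt 1.8, STAR 2.5.3a, HTSeq 0.9.1 and build BDGP6 were used; the annotation release and strand setting are not given in the sources used here. Per the labels' protocols, libraries were poly(A)-selected and directional. The 5 summary lines, 13.1% to 13.8% of listed reads, named no gene and were left out. Symbols and positions came from the Ensembl release 115 annotation of the same assembly (17560 identifiers matched). No sequence is printed.

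filterByExpr kept 9237 genes. Counts were scaled by TMM and tested with edgeR 4.0.16 (quasi-likelihood, R 4.3.3, limma 3.58.1) on group alone with Benjamini-Hochberg adjustment; DESeq2 1.42.0 was an alternative. SE and 95% intervals come from the F statistic. Log2 CPM used a prior count of 2. The tests were checked on simulated counts. Floors and the binomial intervals of the *Or19a* share cover counting error only. Replicate pairs within a group differed by 3.38 to 7.32 times counting noise (chi-square per degree of freedom) and were used as separate samples.

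The genes and lists were chosen with earlier results of these data known. Named genes are the 7 receptors, the other trichoid and intermediate receptors, listed genes past the threshold, and the nearest chemoreceptor profile of each receptor. Others, including neighbours, were chosen after their values were seen. Alternatives were other scalings, DESeq2, other filters, a replicate block, a stricter threshold, coding length and leaving out each sample.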

Additional observations from a re-analysis of the deposited data

How the results depend on the processing

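For 6 of the 7 receptors direction and call held in all 13 alternative fits, with log2 fold changes between -5.43 and -4.74 for *Or83c*, 2.78 and 3.07 for *Or19a*, 0.78 and 0.85 for *Or19b*, 0.32 and 0.43 for *Or67d*, 0.36 and 0.40 for *Or43a*, and 0.38 and 0.43 for *Or23a*. *Or2a* was never past the threshold and its sign changed, to 0.0092 with library totals and between -0.13 and 0.11 when 1 sample was left out; the cause was not tested. The 6 calls also held at an adjusted p under 0.01, where the count over all genes was 1482 in place of 2248, fewer by construction. Leaving out 1 sample gave 1711 to 2155 genes. With coding length 3 of the 7 receptors kept their place in the control order. The *Or19a* share differed by 16.2 to 17.8 percentage points when 1 sample was left out, and the ratios by 5.25 to 5.84 (*Or23a* to *Or83c*), -0.48 to -0.29 (*Or2a* to *Or43a*), 0.71 to 0.75 and 1.02 to 1.20 (*Or19* to *Or43a* and to *Or2a*).

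The replicate block gave 2430 genes and changed no call among the 7. Same-numbered samples deviated together with correlations of 0.0995, 0.0188 and 0.112 over 9237 genes, and 6 of 6 samples correlated best with their own number. The second principal component of log2 CPM held 6.40% of the variance. Replicates 1 to 3 lay on it at 11.2, -6.52 and -4.51 in control and at 12.0, -7.75 and -4.46 in E93RNAi. Samples thus showed some likeness by number. Whether equal numbers mark the pairs reared together is not stated, so the main fit used group alone. With samples paired by number, the *Or19a* share and each ratio had p = 0.25 (exact test over sign changes, two-sided), the smallest value that 3 pairs allow. Among 26 other named genes, 36 of 337 alternatives changed a call and 0 a direction. Depth limits *Or83c* in E93RNAi, at 9 to 19 counts.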
